A study of Homo sapiens with 12 samples.

Results

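The response of LETS1-expressing A549 cells to 4 h of TGF-β was read from 6 of the 12 RNA-seq libraries of the study: 3 libraries of LETS1 cells given TGF-β at 5 ng/mL against 3 libraries of LETS1 cells given the ligand buffer. The libraries were chosen by their labelled vector and treatment. A549 is an established human lung adenocarcinoma line. Per the labels, every culture had been transduced overnight with a lentiviral construct, selected with puromycin and, after another 3 days, given ligand or buffer. LETS1 cells carried a construct expressing LETS1, a long non-coding RNA studied as a factor in TGF-β signalling, and the other 6 libraries came from cells with the empty pCDH-EF1a-PURO vector (Co.vec), given the same buffer or ligand in 3 libraries each. The cells thus shared the line, a lentiviral vector and puromycin selection. LETS1 was ectopically expressed in 1 line, and its level was not checked here because 0 genes in the symbol tables carry that name. The study's text calls the replicates biological without stating if they were transduced separately, so p values measure only the spread between these samples.

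TGF-β is a secreted cytokine that is held latent in the extracellular matrix and, once released, binds the type II receptor TGFBR2, which activates the type I receptor TGFBR1. TGFBR1 phosphorylates SMAD2 and SMAD3, which join SMAD4 and act in the nucleus with other transcription factors on target genes, among them genes whose products shut the pathway down. In carcinoma cells of epithelial origin the pathway is known for slowing proliferation, for building matrix and actin fibres, and for epithelial-mesenchymal transition (EMT), in which cells give up junctions and gain motility.

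Fragments counted in genes numbered 20037540 to 20203691 in the buffer libraries and 19940359 to 20351043 in the TGF-β libraries. The keratin and adhesion markers that define an epithelial line (EPCAM, KRT8, KRT18, KRT7 and CDH1) were all present. Their summed levels were 6995 to 7328 CPM (counts scaled to a common library size) in buffer and 8636 to 8980 CPM with TGF-β. The keratins made up most of these sums. EPCAM was at only 7.13 to 8.10 CPM in buffer and 6.51 to 8.03 CPM with TGF-β. CDH1 was at 97.0 to 98.7 CPM in buffer and lower, at 71.3 to 76.1 CPM, with TGF-β. For the 6 replicate pairs of these libraries the chi-square per degree of freedom was 2.20 to 4.47, so each pair varied more than counting error alone. The share of fragments outside annotated genes was 3.29% to 3.53% in buffer and 2.81% to 2.86% with TGF-β, and its part in the results was not tested. In bulk RNA, fewer cells of a kind and less RNA per cell cannot be told apart.

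Over 4 h, TGF-β raised 3187 genes and lowered 3085 in LETS1 cells, out of 16192 tested. These calls come from edgeR's quasi-likelihood test with Benjamini-Hochberg adjustment (adjusted p under 0.05, 3 libraries a group), and they make 19.7% of tested genes called higher and 19.1% called lower the background against which each gene group below is read. Most changes were small. The median log2 fold change was 0.42 among the rises, -0.37 among the falls and -0.02 over all tested genes. A change of at least 2-fold was fitted for 555 of the rises and 344 of the falls, at least 4-fold for 130 and 27, and at least 8-fold for 52 and 6, so large changes were mostly rises. Precision depended on level: of genes averaging under 1 CPM, 6.38% were called higher and 8.07% lower, against 32.1% and 16.7% of those at 100 CPM or more.

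Most of the largest rises were of genes with a low level in buffer: of the 14, all but ANGPTL4 and SOX8 averaged under 1 CPM there. R3HDML, which encodes a secreted protein of the cysteine-rich CAP family (ENSG00000101074, chr20:44336986-44351235, plus strand, GRCh38), had 1 count over the 3 buffer libraries and 126 over the 3 TGF-β libraries. It was 131 times as high with TGF-β (95% counting interval 23.0 to 5204, which covers counting error only). LEFTY2, a secreted antagonist of NODAL signalling (ENSG00000143768, chr1:225936598-225941489, minus strand), had 3 counts in buffer and 110 with TGF-β, a ratio of 38.0 (12.7 to 187). ANGPTL4, a secreted inhibitor of lipoprotein lipase (ENSG00000167772, chr19:8363289-8374373, plus strand), was at 4.69, 5.89 and 5.62 CPM in buffer and at 170.2, 166 and 153 CPM with TGF-β. All 3 TGF-β libraries lay far above all 3 buffer libraries, with a log2 fold change ± SE of 4.92 ± 0.18 (adjusted p = 5.84e-09). MDFI, an inhibitor of myogenic transcription factors, rose from 0.179 to 4.75 CPM, KANK4, of a family of adaptors at focal adhesions, from 0.359 to 6.71 CPM, and SEMA7A, a membrane-anchored semaphorin, from 0.685 to 9.98 CPM (group means). The non-canonical Wnt ligand WNT5B was at 0.391, 0.638 and 0.586 CPM in buffer and at 10.1, 8.98 and 6.91 CPM with TGF-β, with no overlap between the groups. The other genes among the 14 largest rises, with log2 fold changes ± SE, were LINC01629 (4.90 ± 0.46), ODAPH (4.12 ± 0.39), MMP3 (4.06 ± 0.49), SOX8 (3.96 ± 0.42), ELFN1 (3.92 ± 0.38), ALPL (3.87 ± 0.26) and CHRNA9 (3.79 ± 0.18), of which MMP3 encodes the matrix protease stromelysin, ALPL an alkaline phosphatase and CHRNA9 an acetylcholine receptor subunit.

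The largest falls included the AP-1 gene FOS and the immediate early genes EGR1 and NR4A1. FOS, which encodes the AP-1 subunit c-Fos (ENSG00000170345, chr14:75278774-75282230, plus strand), was at 57.3, 68.9 and 69.2 CPM in buffer and at 4.46, 2.96 and 3.81 CPM with TGF-β. The TGF-β libraries were all far below the buffer libraries (-4.12 ± 0.12 on the log2 scale, adjusted p = 9.48e-20). EGR1, a zinc finger factor induced within minutes of a stimulus (ENSG00000120738, chr5:138465490-138469315, plus strand), was at 53.8, 62.3 and 84.1 CPM in buffer and at 3.59, 4.41 and 4.98 CPM with TGF-β. Its groups did not overlap either, although the buffer libraries were spread, with the third the highest (log2 fold change -3.94, SE 0.20, adjusted p = 2.45e-08). NR4A1, an orphan nuclear receptor (ENSG00000123358, chr12:52022832-52059507, plus strand), was at 73.6, 74.4 and 102 CPM in buffer and at 14.2, 13.1 and 11 CPM with TGF-β. It fell by 2.7 on the log2 scale (SE 0.14, adjusted p = 4.59e-09). NR4A1AS, an RNA gene inside the 3′ end of NR4A1 on the other strand (chr12:52058459-52059503, minus strand), had 83 counts in buffer and 1 with TGF-β, a ratio of 80.0 (14 to 3197). The strand setting of the counting is not given in the sources used here, so reads of these overlapping genes cannot be told apart. The other large falls were DEPP1 (-3.67 ± 0.39), KIF25-AS1 (-3.17 ± 0.43), DBP (-2.98 ± 0.24), SOX2 (-2.63 ± 0.13), CXCL2 (-2.38 ± 0.11), ITGB1BP2 (-2.24 ± 0.38), MASP2 (-2.24 ± 0.39), SPRY1 (-2.16 ± 0.19), GRHL3 (-2.12 ± 0.36) and C9orf152 (-2.12 ± 0.23). The same limit holds for the antisense gene KIF25-AS1. Among these genes, SOX2 is a stem and progenitor transcription factor of the airway, CXCL2 a neutrophil chemokine, SPRY1 a brake on growth factor signalling, DBP an output gene of the circadian clock and GRHL3 an epithelial transcription factor.

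**Figure D1:**
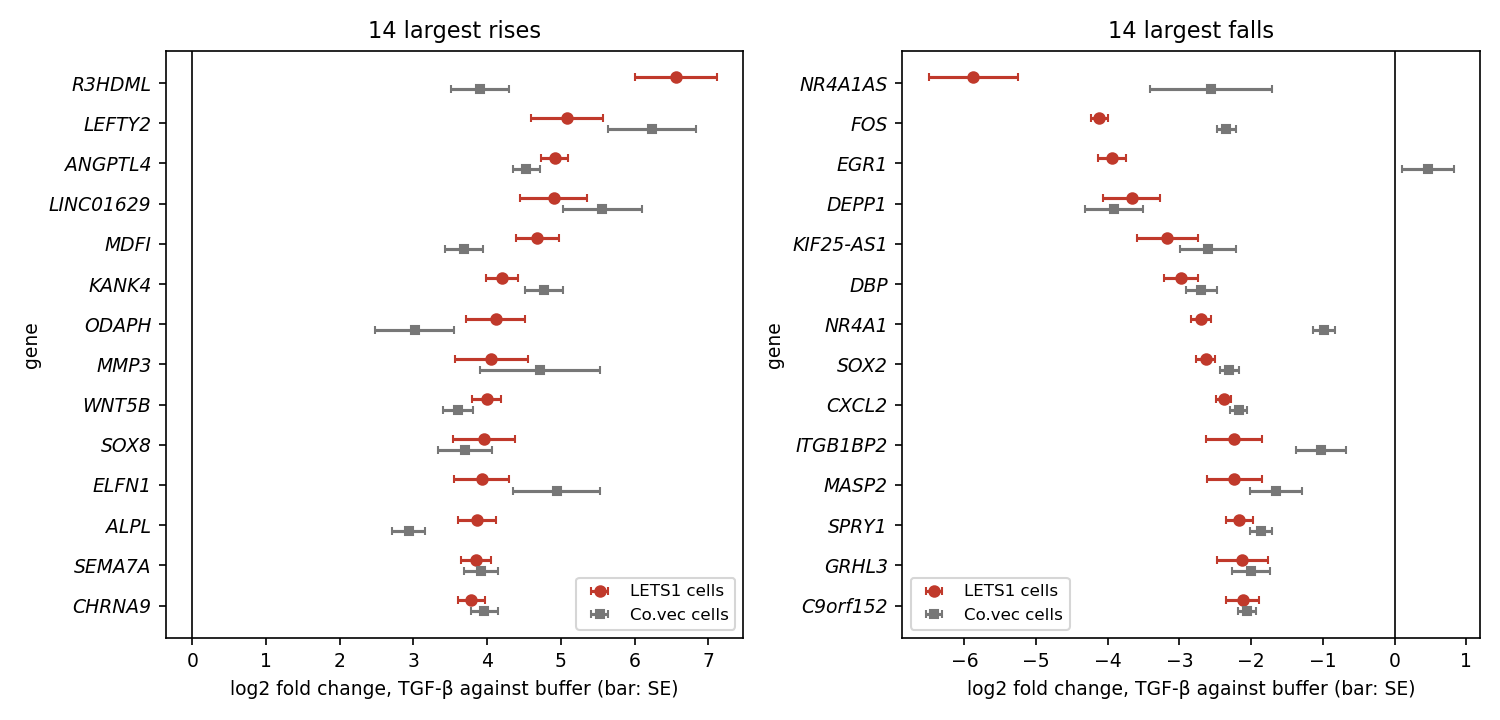
Fitted log2 fold changes of TGF-β against buffer for the 14 largest rises (left) and falls (right) of LETS1 cells, with bars of 1 SE; red circles are LETS1 cells and grey squares Co.vec cells. In LETS1 cells the points run from 3.79 to 6.57 on the left and from -2.12 to -5.87 on the right; those of R3HDML, LEFTY2 and NR4A1AS rest on 1 to 3 counts in the lower group and depend on the prior count.

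The promoters of R3HDML and FOS are shown because these genes are the largest rise and the largest protein-coding fall of the response. They are the RefSeq sequences (GRCh38.p14) from 250 bases before to 50 bases after the annotated start, on the gene's strand, with capitals at matches to CAGAC, the core of a SMAD-binding element, on either strand (GTCTG on the printed strand). The R3HDML promoter (chr20:44336793-44337092, plus strand) has 4 matches, which begin 206, 136 and 120 bases before and 35 bases after the start.
R3HDML: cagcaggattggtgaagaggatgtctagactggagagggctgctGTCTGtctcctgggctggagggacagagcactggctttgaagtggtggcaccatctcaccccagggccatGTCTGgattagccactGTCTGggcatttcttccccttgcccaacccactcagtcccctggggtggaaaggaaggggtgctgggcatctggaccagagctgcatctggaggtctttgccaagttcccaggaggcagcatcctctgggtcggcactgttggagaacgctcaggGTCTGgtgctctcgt
FOS: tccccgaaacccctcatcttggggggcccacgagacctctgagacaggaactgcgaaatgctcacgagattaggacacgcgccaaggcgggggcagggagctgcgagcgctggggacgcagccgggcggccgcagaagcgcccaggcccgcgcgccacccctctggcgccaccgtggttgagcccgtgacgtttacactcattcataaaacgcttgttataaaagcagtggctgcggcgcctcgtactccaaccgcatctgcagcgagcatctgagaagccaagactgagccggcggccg
The FOS promoter (chr14:75278578-75278877, plus strand) has 0 matches in this window. Neither holds the AP-1 motif TGACTCA. A match is a run of letters and not a shown binding site. CAGAC on either strand occurred in 45.3% of all 35116 promoters of the table and in 43.4% of the 11625 tested genes with a promoter there. The share was 45.2% of 2450 genes that rose and 42.2% of 2277 that fell, and it was 53.3% of the 364 that rose and 49.5% of the 200 that fell at least 2-fold. TGACTCA occurred in 3.32% of the promoters of tested genes, 8.52% of those that rose at least 2-fold and 4.50% of those that fell at least 2-fold. These shares are descriptions and were not tested.

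Ligands of the TGF-β family went both ways. Of 17 tested, 7 rose, 6 fell and 4 did not pass, and the median log2 fold change was -0.06, which turned to 0.16 without TGF-β replicate 1. BMP6, a bone morphogenetic protein, was at 22.7, 23.3 and 27.7 CPM in buffer and at 81.4, 77.0 and 70.6 CPM with TGF-β, and the groups did not overlap (log2 fold change 1.63, SE 0.11, adjusted p = 2.05e-08). TGFB1, the main TGF-β isoform, was at 190.1, 217 and 202 CPM in buffer and at 316, 307 and 276 CPM with TGF-β, a smaller rise of 0.56 on the log2 scale (SE 0.049). The activin subunit gene INHBA rose from 0.261 to 1.44 CPM (2.43 ± 0.36) while the other activin subunit gene, INHBB, fell from 64.5 to 27.4 CPM (-1.24 ± 0.057). GDF15, a stress-induced cytokine of the superfamily, was at 105, 115 and 109.8 CPM in buffer and at 38.8, 38.4 and 31.9 CPM with TGF-β, with the TGF-β libraries below all buffer libraries. BMP2 (0.65 ± 0.10), GDF6 (2.29 ± 0.44) and TGFB2 (0.22 ± 0.063) also rose, and BMP4 (-0.74 ± 0.072), TGFB3 (-0.75 ± 0.24), GDF9 (-1.38 ± 0.36) and GDF11 (-0.23 ± 0.086) fell. The rises counted here also include LEFTY2, the antagonist of NODAL signalling given above. The call of TGFB2 was lost without buffer replicate 1 (adjusted p = 0.11), and those of TGFB3 and GDF11 were lost under 4 and 7 of 11 alternative settings.

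Genes of TGF-β latency and activation mostly rose. Of 15 tested, 13 rose, 0 fell and 2 did not pass, with a median log2 fold change of 0.57 against -0.02 over all tested genes. At an unadjusted p under 0.05, 1 was lower, and DESeq2 called 0 lower, as edgeR did, but without buffer replicate 2 edgeR called 1. Without buffer replicate 3, edgeR called 12 higher. Rises near the limit of the edgeR test included LTBP1 (0.18 ± 0.068, adjusted p = 0.0295) and EMILIN1 (0.42 ± 0.17, adjusted p = 0.0481). EMILIN1 had a log2 fold change of -0.22 in Co.vec cells, and its difference between the responses did not pass. THBS1, whose product thrombospondin 1 frees TGF-β from its latency peptide, was at 91.6, 82.0 and 96.1 CPM in buffer and at 247, 255 and 263 CPM with TGF-β. FURIN, the protease that cleaves the TGF-β precursor, was at 131, 123 and 127 CPM in buffer and at 358, 346 and 320.3 CPM with TGF-β. For both genes the groups were well apart, with log2 fold changes ± SE of 1.5 ± 0.051 and 1.43 ± 0.048. The latent TGF-β binding protein gene LTBP2 (1.02 ± 0.062) and the αv integrin gene ITGAV (0.75 ± 0.050), whose integrins pull on the latent complex, rose as well.

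Secreted antagonists also rose. Of 12 tested, 8 rose, 1 fell and 3 did not pass, with a median of 0.74. GREM1, gremlin 1, a BMP antagonist, was at 21, 18.9 and 21.1 CPM in buffer and at 58.8, 59.9 and 64.8 CPM with TGF-β. FSTL3, which binds activins, was at 138, 153 and 142 CPM in buffer and at 328, 305 and 275 CPM with TGF-β. Both had higher values in all 3 TGF-β libraries, with log2 fold changes ± SE of 1.59 ± 0.064 and 1.06 ± 0.051. FSTL1 (0.97 ± 0.049) and the secreted protease gene HTRA1 (0.51 ± 0.056) rose with them. The fall was of BMPER (-0.42 ± 0.16, adjusted p = 0.0408), and it was lost under 5 of 11 alternatives, among them DESeq2 and leaving out buffer replicate 3 or TGF-β replicate 2 or 3.

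The type I TGF-β receptor rose and the type II receptor fell, and the receptors as a list went both ways. Of 13 tested, 7 rose, 3 fell and 3 did not pass, with a median of 0.19. TGFBR1, the type I receptor (ENSG00000106799, chr9:99104038-99154192, plus strand), was at 76.2, 66.1 and 78.1 CPM in buffer and at 245, 242 and 254 CPM with TGF-β. All TGF-β libraries lay above all buffer libraries, with a log2 fold change ± SE of 1.75 ± 0.053 (adjusted p = 3.62e-26). TGFBR2, the type II receptor that binds the ligand (ENSG00000163513, chr3:30606502-30694142, plus strand), was at 299, 292 and 304 CPM in buffer and at 170.0, 178 and 175 CPM with TGF-β. It fell by 0.78 on the log2 scale (SE 0.043, adjusted p = 2.01e-18), and the groups did not overlap. TGFBR3, the co-receptor betaglycan, was at 13.2, 13.2 and 13.7 CPM in buffer and at 4.77, 6.12 and 6.2 CPM with TGF-β, a fall as clear of overlap (-1.23 ± 0.10). Among BMP and activin receptors, BMPR2 was at 66.9, 67.4 and 68.0 CPM in buffer and at 199.8, 210.3 and 224 CPM with TGF-β (1.65 ± 0.052). ACVR1, the type I receptor ALK2, was at 26.0, 28.5 and 25.9 CPM in buffer and at 65.7, 64.9 and 61.3 CPM with TGF-β (1.26 ± 0.058). BMPR1B (0.45 ± 0.057), ACVR2B (0.38 ± 0.10), BMPR1A (0.19 ± 0.053) and AMHR2 (1.16 ± 0.35) rose, and ACVR1B (-0.29 ± 0.060), the activin type I receptor, fell. ACVR2A (0.09 ± 0.12), ENG (-0.32 ± 0.26) and ACVRL1 (-1.18 ± 0.49), the latter with a mean of 0.506 CPM in buffer, did not pass. AMHR2 lost its call with DESeq2 (adjusted p = 0.0612) and ACVR2B without TGF-β replicate 1 (0.054).

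SMAD genes changed by small amounts, and of their partners RUNX1 and RUNX3 changed by more. Of 13 tested, 7 rose, 2 fell and 4 did not pass, with a median of 0.24. SMAD2 was at 139.7, 142 and 141 CPM in buffer and at 109, 114 and 114 CPM with TGF-β, and SMAD3 at 187, 186 and 191 CPM in buffer and at 226, 222 and 219 CPM with TGF-β. These changes of -0.33 ± 0.043 and 0.24 ± 0.041 on the log2 scale were small but larger than the spread between libraries, with no overlap for either gene. SMAD4, the shared partner, rose by 0.26 ± 0.060, SMAD5 of the BMP branch by 0.26 ± 0.050, and SMAD1 (0.05 ± 0.11) did not pass. The partner transcription factor gene RUNX1 rose from 23.0 to 44.7 CPM (0.96 ± 0.076) and RUNX3 fell (-0.56 ± 0.092), while the coactivator genes EP300 (0.29 ± 0.054) and CREBBP (0.24 ± 0.058) rose slightly. TRIM33 (0.16 ± 0.058, adjusted p = 0.0299) lost its call without buffer replicate 1 or without TGF-β replicate 2 or 3, and RUNX2 (0.30 ± 0.14, adjusted p = 0.09) passed without TGF-β replicate 1 (0.0375).

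Genes listed as feedback inhibitors of SMAD signalling rose more often than they fell. Of 21 tested, 12 rose, 1 fell and 8 did not pass, with a median of 0.43. Not every member is an inhibitor. RNF111 (0.24 ± 0.053), counted among the 12, and USP15 (-0.09 ± 0.056), which did not pass, are known to promote the signal. PMEPA1, a membrane protein that traps SMAD2 and SMAD3 (ENSG00000124225, chr20:57648392-57711536, minus strand), was at 247, 249.9 and 272 CPM in buffer and at 1208, 1164 and 1118 CPM with TGF-β. All TGF-β libraries lay far above all buffer libraries, with a log2 fold change ± SE of 2.18 ± 0.046 (adjusted p = 2.81e-31). SKIL, the SMAD co-repressor SnoN, was at 77.9, 74.8 and 79.0 CPM in buffer and at 240.4, 237 and 251 CPM with TGF-β, and its relative SKI at 37.0, 42.5 and 41.7 CPM in buffer and at 127, 115 and 109 CPM with TGF-β. Both were clear of overlap, with log2 fold changes ± SE of 1.65 ± 0.053 and 1.54 ± 0.058. SMAD7, the inhibitory SMAD that brings ubiquitin ligases to the receptor (ENSG00000101665, chr18:48919853-48952052, minus strand), was at 35.4, 35 and 43.0 CPM in buffer and at 59.8, 52.7 and 50.8 CPM with TGF-β. Its rise of 0.52 (SE 0.069, adjusted p = 1.34e-07) was larger than the spread, and buffer replicate 3 stood highest of its group. The ubiquitin ligase genes SMURF2 (1.33 ± 0.056) and SMURF1 (1.07 ± 0.052), which act with SMAD7, rose, as did LDLRAD4 (2.74 ± 0.13), a relative of PMEPA1 that stood at 2.25, 2.26 and 2.20 CPM in buffer. BAMBI, a decoy receptor without kinase, rose by 0.58 ± 0.056, the phosphatase gene PPM1A by 0.43 ± 0.053 and VASN, whose product binds the ligand, by 0.69 ± 0.067. The ubiquitin ligase gene NEDD4L fell (-0.35 ± 0.059). SMAD6 (-0.02 ± 0.052), TGIF1 (-0.02 ± 0.050) and TGIF2 (-0.33 ± 0.14) were among the 8 that did not pass. TGIF2 passed as lower without TGF-β replicate 2 or buffer replicate 3, so that 2 members were then lower.

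**Figure D2:**
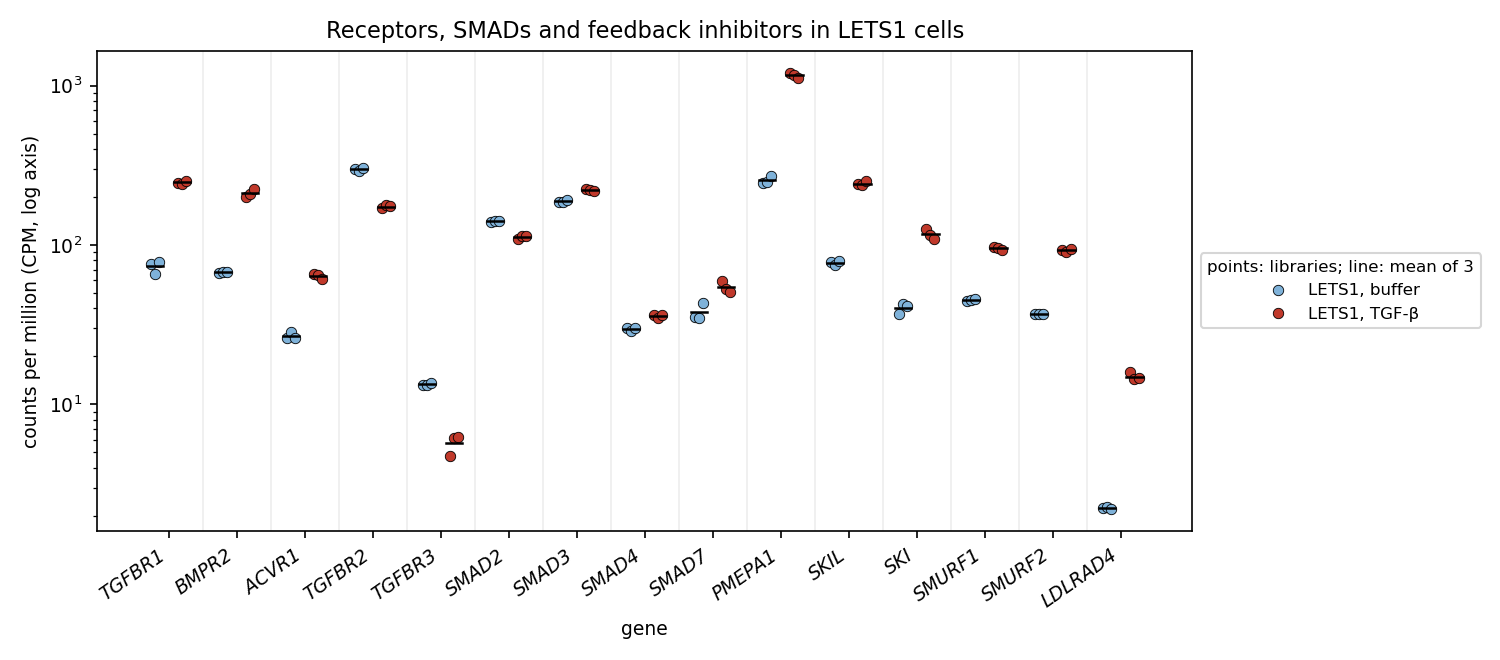
CPM (log axis) of receptor, SMAD and feedback inhibitor genes in each LETS1 library, blue for buffer and red for TGF-β, with a line at the mean of 3. TGFBR1, BMPR2, ACVR1 and the feedback genes from PMEPA1 to LDLRAD4 are higher in every TGF-β library, TGFBR2, TGFBR3 and SMAD2 are lower in every one, and SMAD3, SMAD4 and SMAD7 show the small rises given in the text.

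The promoters of SMAD7 and PMEPA1 are shown because both are feedback genes with measured rises of different size, 0.52 and 2.18 on the log2 scale. Source, window and capitals are as above for R3HDML. The SMAD7 promoter (chr18:48950916-48951215, minus strand) has 2 matches to CAGAC, which begin 217 and 128 bases before the RefSeq start. That start lies downstream of the outermost GENCODE start, so this window lies inside the gene span printed above.
SMAD7: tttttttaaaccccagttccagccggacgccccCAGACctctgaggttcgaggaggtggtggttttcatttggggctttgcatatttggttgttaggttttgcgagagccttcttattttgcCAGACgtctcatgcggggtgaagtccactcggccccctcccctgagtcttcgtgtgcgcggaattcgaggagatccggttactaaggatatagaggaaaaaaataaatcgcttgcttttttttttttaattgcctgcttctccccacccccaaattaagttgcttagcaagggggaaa
PMEPA1: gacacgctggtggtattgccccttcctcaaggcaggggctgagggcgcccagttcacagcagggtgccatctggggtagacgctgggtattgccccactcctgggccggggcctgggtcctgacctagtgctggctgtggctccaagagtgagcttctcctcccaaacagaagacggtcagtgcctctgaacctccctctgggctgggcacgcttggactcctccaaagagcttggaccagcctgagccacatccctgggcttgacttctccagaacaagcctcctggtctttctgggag
The PMEPA1 promoter (chr20:57711423-57711722, minus strand) has 0 matches in this window, although the gene rose more. Neither holds TGACTCA.

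Of 39 tested genes known as early targets of TGF-β, 34 rose, 4 fell and 1 did not pass, with a median log2 fold change of 1.0. The list was written with earlier results of these data known, so this count is a description and not a test. It shares 26 of the 39 genes with other lists of this report. PDGFB, a platelet-derived growth factor chain, was at 4.34, 5.10 and 4.88 CPM in buffer and at 59.2, 58.0 and 55.8 CPM with TGF-β. IL11, a cytokine of the interleukin-6 family, was at 28.2, 27.9 and 32.8 CPM in buffer and at 231, 217 and 224 CPM with TGF-β. CCN2, a matricellular protein also called CTGF, was at 19, 19.6 and 23.4 CPM in buffer and at 78.3, 82.1 and 85.6 CPM with TGF-β. In each of the 3 genes the groups were far apart, with log2 fold changes ± SE of 3.59 ± 0.094, 2.92 ± 0.12 and 1.99 ± 0.064. COL1A1, the α1 chain of collagen I, was at 18.6, 18.8 and 22.3 CPM in buffer and at 149.8, 143 and 133 CPM with TGF-β (2.83 ± 0.061), and TNS1, a focal adhesion protein, rose from 19.3 to 100.0 CPM (2.38 ± 0.065). JUNB, an AP-1 subunit, was at 88.3, 96.9 and 118 CPM in buffer and at 294, 269 and 239 CPM with TGF-β, again without overlap (1.40 ± 0.11). Further rises were TSPAN2 (3.33 ± 0.29), SPHK1 (1.93 ± 0.10), NUAK1 (1.68 ± 0.054), COL4A1 (1.66 ± 0.050), LMCD1 (1.57 ± 0.052), BPGM (1.33 ± 0.077), MMP2 (1.31 ± 0.098), TGFBI (1.07 ± 0.045), PTHLH (1.07 ± 0.12) and NEDD9 (1.0 ± 0.047). SPHK1 makes the lipid signal sphingosine 1-phosphate, TGFBI is a secreted matrix protein and NEDD9 a focal adhesion scaffold. The smallest rises were BACH1 (0.46 ± 0.069), BHLHE40 (0.33 ± 0.047), VEGFA (0.32 ± 0.060) and TGFB1I1 (0.22 ± 0.067), and the call of TGFB1I1 was lost without buffer replicate 1 (adjusted p = 0.0949).

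The 4 early targets that fell were ARID5B (-1.01 ± 0.091), KLF10 (-0.53 ± 0.057), LIF (-0.31 ± 0.054) and RHOB (-0.31 ± 0.064). KLF10, also known as TGF-β inducible early gene 1, was at 135, 146 and 172 CPM in buffer and at 104, 107 and 102 CPM with TGF-β, and every TGF-β library was below every buffer library. RHOB, a small GTPase of actin and endosomes, was at 179.7, 198 and 202 CPM in buffer and at 166, 158 and 143 CPM with TGF-β. KLF11 (-0.04 ± 0.079) was the member that did not pass.

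Immediate early genes, the first to be transcribed after a stimulus, were split. Of 20 tested, 6 rose, 9 fell and 5 did not pass, with a median of -0.09. MCL1, a survival factor of the BCL2 family, was at 229, 222 and 239.7 CPM in buffer and at 487, 487 and 489 CPM with TGF-β, and the serum response factor gene SRF rose too (0.65 ± 0.060). Beside EGR1 and NR4A1, the falls included NR4A2 (-1.38 ± 0.10) and PPP1R15A (-0.52 ± 0.048), a regulator of translation under stress. AP-1 factor genes were split too. Of 13 tested, 7 rose, 5 fell and 1 did not pass, with a median of 0.11. FOSB, a relative of c-Fos, was at 17.6, 16.9 and 28.0 CPM in buffer and at 5.38, 5.62 and 3.71 CPM with TGF-β, with all TGF-β libraries lower (-2.09 ± 0.24), and ATF3 fell by less (-0.63 ± 0.092), while the small MAF genes MAFK (0.81 ± 0.070) and MAFF (0.76 ± 0.099) rose with JUNB. Of 13 feedback genes of the MAP kinase pathway, 6 rose, among them DUSP7 (1.37 ± 0.083) and SPRY4 (0.77 ± 0.071), and 5 fell, among them SPRY1 and DUSP4 (-0.46 ± 0.045). Buffer replicate 3 was the highest buffer library for 14 of the 20 immediate early genes, against 36.5% of all tested genes. Without it the same counts of 6 higher and 9 lower were called among them, and FOS, EGR1 and NR4A1 remained lower under all 11 alternatives (highest adjusted p = 6.08e-14, 0.000505 and 0.000474).

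Members of other developmental pathways moved in both directions. Of 13 tested, 4 rose, 4 fell and 5 did not pass among BMP and ID targets, with a median of 0.12. ID2, an inhibitor of helix-loop-helix factors, fell from 33.0 to 11.9 CPM (-1.47 ± 0.084), and BAMBI rose. Of 21 Notch genes, 8 rose and 4 fell. The ligand gene JAG1 (0.72 ± 0.052) and the effectors HES2 (2.68 ± 0.21) and HEY1 (0.81 ± 0.15) rose, whereas HES1, the best known Notch effector, was at 34.8, 34.0 and 41.9 CPM in buffer and at 13.3, 11.9 and 11.8 CPM with TGF-β and fell (-1.58 ± 0.087). LFNG, a modifier of Notch, rose (1.33 ± 0.085) and the ligand gene JAG2 fell (-0.41 ± 0.068). Of 35 Wnt genes, 17 rose and 7 fell, with a median of 0.15. Beside WNT5B, the feedback inhibitor gene NKD1 rose (1.79 ± 0.076), and RNF43 (-1.84 ± 0.083) and LGR4 (-0.87 ± 0.046), which set the level of Wnt receptors at the membrane, fell. RNF43 was at 26.2, 26.8 and 27.8 CPM in buffer and at 7.53, 7.47 and 7.57 CPM with TGF-β, with no overlap. Of 25 semaphorins, neuropilins and plexins, 10 rose and 8 fell. NRP2 (1.46 ± 0.052), PLXNA4 (2.62 ± 0.19) and SEMA4C (1.01 ± 0.077) rose, and SEMA4G (-0.61 ± 0.074) and SEMA6B (-0.58 ± 0.078) fell.

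Of 16 tested, 6 rose, 3 fell and 7 did not pass among EMT transcription factors, with a median of 0.13. The list also holds the epithelial factor GRHL3, given above, which was its largest fall (-2.12). The 3 falls are thus not all of genes that drive EMT. SNAI1, Snail, was at 6.93, 7.75 and 7.08 CPM in buffer and at 20.2, 17.5 and 17.3 CPM with TGF-β, and SNAI2, Slug, at 0.879, 1.57 and 0.928 CPM in buffer and at 2.77, 2.66 and 2.54 CPM with TGF-β. Both rose without overlap, by 1.34 ± 0.093 and 1.23 ± 0.22 on the log2 scale, and ZEB1 rose from 23.1 to 38.6 CPM (0.74 ± 0.083). SOX4 (1.01 ± 0.051), FOXC2 (1.18 ± 0.22) and HMGA2 (0.64 ± 0.056) rose, FOXC1 (-0.46 ± 0.080) and SOX9 (-0.22 ± 0.078) fell, and ZEB2 (0.22 ± 0.095), TWIST1 (0.03 ± 0.18) and TWIST2 (-0.17 ± 0.11) did not pass. ZEB2 passed without TGF-β replicate 1 or buffer replicate 2 and in the fit of the 6 libraries alone, and SOX9 lost its call under 5 of 11 alternatives, DESeq2 among them.

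Most mesenchymal genes rose. Of 17 tested, 11 rose, 0 fell and 6 did not pass, with a median of 0.37, and 0 were lower at an unadjusted p under 0.05 or by DESeq2. VIM, the intermediate filament vimentin, was at 550.1, 571 and 542 CPM in buffer and at 747, 735 and 737 CPM with TGF-β, and CDH2, N-cadherin, at 98.0, 93.4 and 96.5 CPM in buffer and at 121, 124 and 125 CPM with TGF-β. These rises of 0.42 ± 0.043 and 0.36 ± 0.045 were modest and larger than the spread. FN1, fibronectin, rose by 0.24 ± 0.057, the fibronectin receptor chain ITGA5 by 1.16 ± 0.053, COL5A1 by 0.98 ± 0.048 and NT5E by 0.85 ± 0.056. Without buffer replicate 2, 1 mesenchymal gene was called lower. CDH1, E-cadherin, the adhesion molecule of epithelia (ENSG00000039068, chr16:68737225-68835548, plus strand), was at 97.0, 98.7 and 97.2 CPM in buffer and at 71.3, 76.1 and 75.9 CPM with TGF-β, a fall of 0.39 on the log2 scale (SE 0.050, adjusted p = 2.8e-08) without overlap.

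Epithelial junction genes did not move as a block. Of 22 tested, 7 rose, 7 fell and 8 did not pass, with a median of -0.02, which was 0.01 without buffer replicate 3. CLDN4, a tight junction claudin, was at 9.81, 10.5 and 7.76 CPM in buffer and at 57.9, 57.3 and 51.1 CPM with TGF-β, a rise of 2.57 ± 0.097 with every TGF-β library higher. JUP, plakoglobin, rose by 0.90 ± 0.047 and TJP1, ZO-1, by 0.44 ± 0.045, whereas TJP3, ZO-3, fell by 1.22 on the log2 scale (SE 0.13). Of 14 keratin genes 8 rose and 0 fell by edgeR and by DESeq2 (median 0.27). Leaving out buffer replicate 2 or TGF-β replicate 3 gave 1 fall, as many as had an unadjusted p under 0.05. KRT16 (2.40 ± 0.20) and KRT17 (1.79 ± 0.14), keratins of stressed epithelia, rose most among those named, followed by KRT80 (0.74 ± 0.046) and KRT8 (0.31 ± 0.043), and reads of KRT8, KRT16 and KRT17 can be shared with near-identical pseudogenes. Of 13 mucin and secretory genes 7 fell and 0 rose (median -0.31), with 0 rises also at an unadjusted p under 0.05 and by DESeq2. MUC5AC, a gel-forming mucin, was at 109, 115 and 106 CPM in buffer and at 84.4, 83.3 and 77.2 CPM with TGF-β (-0.43 ± 0.047), and MUC5B (-0.36 ± 0.050), the disulfide isomerase gene AGR2 (-0.29 ± 0.049) and the transcription factor gene FOXA3 (-1.30 ± 0.17) fell with it. Of 13 genes of the A549 and lung lineage, HNF4A (1.22 ± 0.060), a nuclear receptor of liver and gut, was among 4 that rose, and the forkhead factor gene FOXA2 (-0.94 ± 0.071) was among 2 that fell.

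Genes of matrix, adhesion and actin fibres mostly rose. Of 34 tested, 21 rose, 6 fell and 7 did not pass among core matrix genes, with a median of 0.26. Beside COL1A1, the basement membrane collagen COL4A1 was at 56.0, 51.5 and 51.0 CPM in buffer and at 168, 165 and 168 CPM with TGF-β and its partner COL4A2 rose by 0.89 ± 0.045. The laminin genes LAMA5 (-0.25 ± 0.053) and LAMB2 (-0.25 ± 0.051) were among the falls. Of 31 tested, 16 rose, 4 fell and 11 did not pass among matrix proteases, their inhibitors and cross-linkers, with a median of 0.32. ADAM19, a membrane metalloprotease, was at 21.6, 20.9 and 24.9 CPM in buffer and at 143, 137 and 142 CPM with TGF-β (2.64 ± 0.071), and ADAMTS15, a secreted protease of proteoglycans, rose from 5.48 to 31.2 CPM (2.51 ± 0.11). The cross-linker gene TGM2 rose from 771 to 1444 CPM (0.91 ± 0.054), while MMP24 (-0.53 ± 0.060) and the collagen hydroxylase gene P4HA1 (-0.34 ± 0.064) fell. Without TGF-β replicate 1, 2 of this list were called lower instead of 4. Of 8 plasminogen system genes tested here 6 rose and 0 fell (0 also at an unadjusted p under 0.05 and by DESeq2), with PLAUR, the urokinase receptor (1.17 ± 0.071), SERPINE2 (0.77 ± 0.045), the urokinase gene PLAU (0.71 ± 0.061) and S100A10 (0.15 ± 0.045) among them.

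Most integrin genes rose. Of 16 tested, 13 rose, 0 fell and 3 did not pass, with a median of 0.60. At an unadjusted p under 0.05, 2 were lower, DESeq2 called 0 lower, and leaving out buffer replicate 1 or 2 gave 1 fall. ITGA5, the fibronectin receptor chain, was at 61.8, 63.9 and 65.2 CPM in buffer and at 143, 139 and 145 CPM with TGF-β, and ITGAV, the chain of RGD-binding integrins, at 200.4, 186 and 214 CPM in buffer and at 325, 338 and 350.0 CPM with TGF-β. Neither gene's groups overlapped. ITGA11, a collagen receptor chain, rose by 1.05 ± 0.094 and the hemidesmosome chain ITGB4 by 0.72 ± 0.044. Of 35 tested, 26 rose, 4 fell and 5 did not pass among contractile and actin genes, with a median of 0.34. Genes of guanine nucleotide exchange factors, which switch on small GTPases, namely ARHGEF18 (27.9 to 109 CPM, 1.96 ± 0.059) and ARHGEF40 (1.34 ± 0.052), led the named rises with TNS1 and PDLIM7 (1.14 ± 0.052), a scaffold of actin fibres. LMO7 (-0.29 ± 0.051) was among the falls. Of 25 targets of YAP and TAZ, transcriptional coactivators that respond to tension, 11 rose and 4 fell (median 0.10). F3, tissue factor (2.11 ± 0.11), and DLC1 (0.92 ± 0.066) rose with CCN2, and AJUBA (-0.43 ± 0.056) and IGFBP3 (-0.43 ± 0.049) fell.

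**Figure D3:**
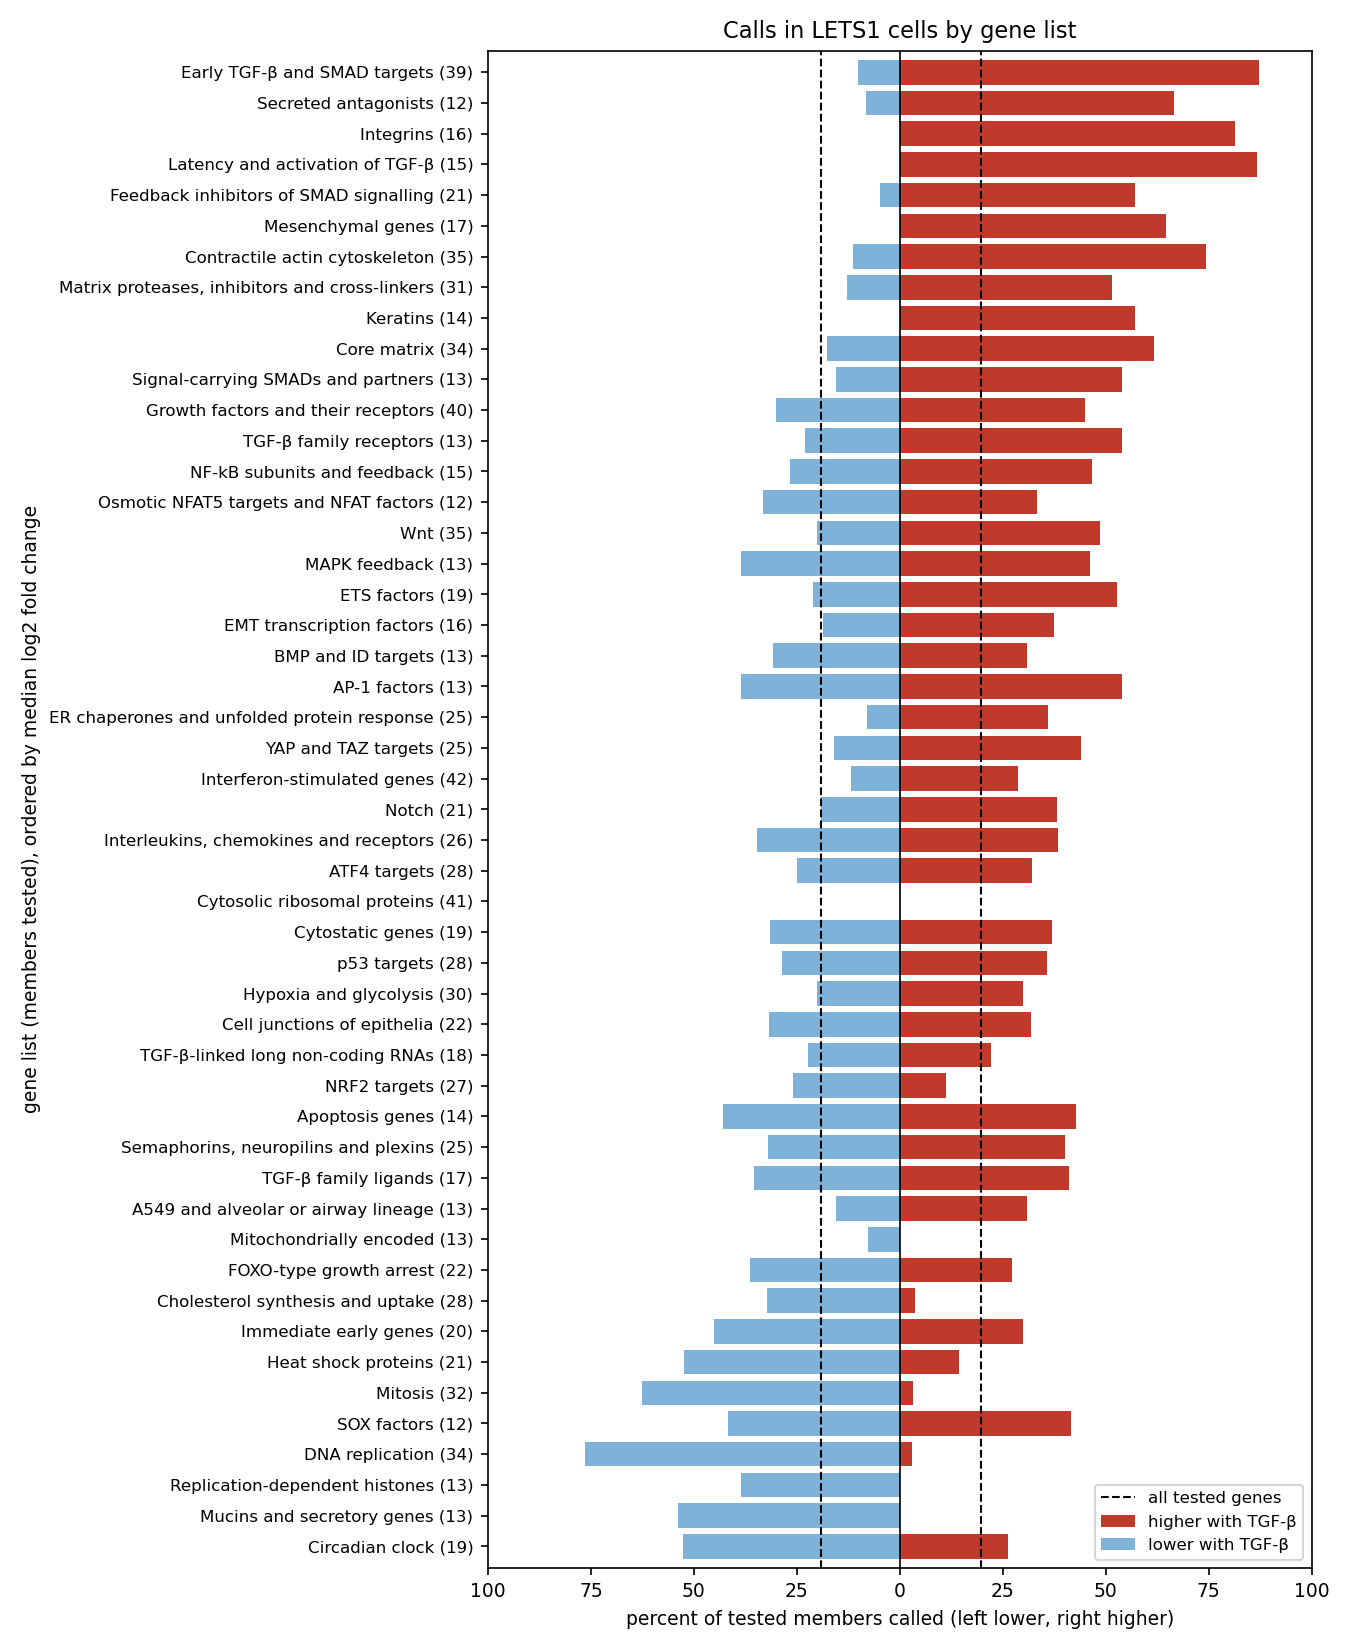
Percent of the tested members of each gene list called higher (red, right) or lower (blue, left) with TGF-β in LETS1 cells, for lists with at least 10 tested members (number in brackets), ordered by median log2 fold change. Dashed lines mark the 19.7% and 19.1% of all tested genes; early targets, integrins and latency genes reach furthest to the right, and DNA replication and mitosis genes furthest to the left. Some genes are on several lists, and the lists were written with earlier results of these data known.

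Genes of cell division were lower by small amounts. Of 34 DNA replication genes tested 1 rose and 26 fell, with a median of -0.25. CDT1, which licenses replication origins, was at 58.1, 62.3 and 57.7 CPM in buffer and at 42.6, 41.1 and 38.2 CPM with TGF-β (-0.55 ± 0.059). CDC6 (-0.37 ± 0.048), PRIM1 (-0.65 ± 0.085) and the chromatin assembly gene CHAF1A (-0.45 ± 0.055) fell, and GINS3 (0.28 ± 0.067) was the rise. Of 32 mitosis genes 1 rose and 20 fell, with a median of -0.18. CDC25B, the phosphatase that starts mitosis, was at 625, 618 and 613 CPM in buffer and at 328, 329 and 314 CPM with TGF-β, the clearest fall of that list (-0.93 ± 0.041). KIF20A (-0.57 ± 0.055), HMMR (-0.40 ± 0.055) and TPX2 (-0.26 ± 0.042) fell, and KIF2C rose (0.30 ± 0.058). Of 13 replication-dependent histone genes 0 rose (0 also at an unadjusted p under 0.05 and by DESeq2) and 5 fell, H4C14 (-1.37 ± 0.31), H2AC11 (-0.88 ± 0.14), H3C10 (-0.76 ± 0.14) and H2AC6 (-0.29 ± 0.065) among them.

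Genes of the cytostatic list were mixed. The list holds drivers of the cell cycle, such as CCND1, beside inhibitors, so its rises and falls have no common meaning. Of 19 tested, 7 rose, 6 fell and 6 did not pass, with a median of 0.01. CDKN1A, the inhibitor p21 of cyclin-dependent kinases, was at 242, 248 and 255 CPM in buffer and at 481, 462 and 439 CPM with TGF-β and rose without overlap (0.89 ± 0.046), as did the cyclin gene CCND1 (0.69 ± 0.044). TOB1, an antiproliferative regulator of mRNA decay, was at 178, 188 and 187 CPM in buffer and at 59.0, 61.1 and 60.6 CPM with TGF-β and fell (-1.61 ± 0.047), as did the kinase inhibitor gene CDKN2C (-0.55 ± 0.068). Of 14 apoptosis genes 6 rose and 6 fell. BMF, a BH3-only killer protein, was at 4.00, 3.34 and 4.20 CPM in buffer and at 45.7, 39.6 and 38.0 CPM with TGF-β, a rise of 3.42 ± 0.10 with every TGF-β library higher. BCL2L11, BIM (0.72 ± 0.065), and PMAIP1, NOXA (0.61 ± 0.061), rose, and the kinase gene DAPK1 (-1.69 ± 0.064) and the repressor gene BCL6 (-0.84 ± 0.090) fell. Of 28 p53 targets 10 rose and 8 fell, with 5 falls without buffer replicate 2. TP53I3 (1.10 ± 0.048) and SUSD6 (0.88 ± 0.065) rose with CDKN1A, and PLK2 (-0.60 ± 0.044) fell with GDF15.

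Cytokine and signalling genes went both ways. Of 26 interleukins, chemokines and their receptors 10 rose and 9 fell. The neutrophil chemokine CXCL2 was at 20.3, 24.5 and 20.8 CPM in buffer and at 5.02, 3.91 and 3.61 CPM with TGF-β, and CXCL1 fell by 1.30 on the log2 scale (SE 0.069). These close paralogs can share reads. The monocyte chemokine CCL2 was at 13.1, 15.3 and 14.4 CPM in buffer and at 46.0, 39.6 and 41.2 CPM with TGF-β and rose (1.57 ± 0.087), with the scavenger receptor ACKR3 (1.18 ± 0.074). Of 15 NF-κB subunits and feedback genes 7 rose and 4 fell, with RELB (0.91 ± 0.084) and NFKB1 (0.70 ± 0.058) among the rises and NFKBIZ (-0.85 ± 0.081) and BIRC3 (-0.66 ± 0.071) among the falls. Of 40 growth factors and receptors 18 rose and 12 fell. FGF2 (1.31 ± 0.049), EGFR (0.92 ± 0.049) and FGFR1 (0.82 ± 0.050) rose with PDGFB, and IGFBP1 (-0.96 ± 0.083) and ERRFI1, an inhibitor of EGFR (-0.47 ± 0.052), fell. Of 42 interferon-stimulated genes 12 rose and 5 fell, OASL (0.58 ± 0.050), IFIT2 (0.53 ± 0.051) and IFIT3 (0.45 ± 0.049) among the rises and STAT2 (-0.69 ± 0.067) and PARP9 (-0.33 ± 0.063) among the falls.

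Transcription factor families and the clock also went both ways. Of 12 SOX genes 5 rose and 5 fell. SOX8 was at 1.27, 0.932 and 0.928 CPM in buffer and at 18.0, 15.5 and 15.6 CPM with TGF-β, and SOX2 at 15.2, 15.2 and 13.4 CPM in buffer and at 1.59, 2.76 and 2.69 CPM with TGF-β, so the order of low and high was opposite in these 2 relatives. SOX13 rose (0.56 ± 0.072) and SOX12 fell (-0.65 ± 0.053). Of 19 ETS genes 10 rose, with ELK3 (1.54 ± 0.051) and ETS2 (0.81 ± 0.045) among them, and 4 fell. ELF3, an epithelial ETS factor, was at 106, 111 and 113 CPM in buffer and at 30.3, 30.1 and 29.6 CPM with TGF-β (-1.87 ± 0.053), and its relative EHF fell as well (-1.56 ± 0.079). Of 19 clock genes 5 rose and 10 fell (median -0.35). PER1 (-1.26 ± 0.099), PER2 (-1.07 ± 0.085) and DBP fell, and CRY1 rose from 21.2 to 40.9 CPM (0.94 ± 0.065). Of 22 genes of FOXO-type growth arrest 6 rose and 8 fell. PDK4, a kinase that turns off pyruvate oxidation, was at 242, 228 and 239 CPM in buffer and at 74.6, 82.0 and 83.9 CPM with TGF-β and fell (-1.56 ± 0.049), with ARRDC3 (-0.74 ± 0.052) and IRS2 (-0.65 ± 0.047), while PIK3IP1, an inhibitor of PI3 kinase, rose (2.0 ± 0.17).

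Stress and metabolic gene groups held rises and falls. Of 30 hypoxia and glycolysis genes 9 rose, such as NDRG1 (1.18 ± 0.051), PFKFB3 (0.66 ± 0.041) and SLC2A1 (0.54 ± 0.046), and 6 fell, such as ADM (-1.21 ± 0.065). Of 27 NRF2 targets 3 rose, among them HMOX1 (0.77 ± 0.049), and 7 fell, among them ABCC2 (-0.62 ± 0.041) and GCLC (-0.56 ± 0.047), with 4 falls without buffer replicate 2 and 5 rises without TGF-β replicate 1. Of 28 ATF4 targets 9 rose, led by the amino acid transporter gene SLC7A1 (1.09 ± 0.053), and 7 fell, such as PSPH (-0.57 ± 0.057). Of 28 cholesterol genes 1 rose and 9 fell, the mevalonate kinase gene MVK (-0.37 ± 0.059) among the falls. Without buffer replicate 3, the highest buffer library for 22 of these 28 genes, 5 were called lower, and leaving out a TGF-β library gave 2 or 3 rises. Of 21 heat shock genes 3 rose, with the small chaperones CRYAB (1.30 ± 0.12) and HSPB1 (0.79 ± 0.063), and 11 fell, with HSPA1A (-0.85 ± 0.062) and HSPA1B (-0.70 ± 0.071), near-identical copies that can share reads.

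Of 25 genes of the endoplasmic reticulum 9 rose, HERPUD1 (1.08 ± 0.049) and CREB3L2 (0.80 ± 0.053) among them, and XBP1 (-0.72 ± 0.046) and ERN1 (-0.32 ± 0.066), which act in 1 branch of the unfolded protein response, fell. NFATC2, a calcium-regulated factor, rose from 2.87 to 11.6 CPM (2.01 ± 0.13), and the osmotic factor NFAT5 fell slightly (-0.22 ± 0.065, adjusted p = 0.00635). The metallothionein gene MT2A (0.97 ± 0.11) and the zinc exporter gene SLC30A1 (0.58 ± 0.062) rose. Of 41 cytosolic ribosomal protein genes 0 were called with edgeR's quasi-likelihood test, 0 had an unadjusted p under 0.05 and DESeq2 called 0, with a median of 0.02. Leaving out buffer replicate 2, TGF-β replicate 2 or TGF-β replicate 3 gave 1 rise each. Of 13 mitochondrially encoded genes, MT-ND1 alone fell (-0.26 ± 0.072) and 0 rose (0 also at an unadjusted p under 0.05 and by DESeq2). Leaving out TGF-β replicate 3 or buffer replicate 1 gave 3 falls, and leaving out buffer replicate 3 gave 2. These genes took 8.60% to 9.55% of counts in buffer and 8.04% to 8.55% with TGF-β.

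Among long non-coding RNAs linked to TGF-β in general knowledge, 4 of 18 rose and 4 fell, with a median of -0.03. These shares were near the 19.7% and 19.1% of all tested genes. NKILA (1.82 ± 0.12) and MIR100HG (0.74 ± 0.10) rose, and the nuclear RNA NEAT1 fell from 392.1 to 224 CPM (-0.81 ± 0.053) with SNHG1 (-0.42 ± 0.056). Over whole classes, 64 of 733 lincRNA genes rose and 141 fell (median log2 fold change -0.17), and 62 of 833 antisense genes rose and 139 fell (median -0.17), against 2980 rises and 2607 falls of 13321 protein-coding genes (median 0.00). In both non-coding classes the share of falls was near or below the 19.1% of all tested genes, and that of rises was below 19.7%. Of all genes at 1 to 10 CPM in their higher group, 13.0% were called higher and 19.4% lower. The part of level in these class counts was not tested. With the strand setting unknown, reads of antisense genes cannot be told apart from those of the genes they overlap. The share of fragments outside annotated genes was also lower in the TGF-β libraries, as given above, and its part in these medians was not tested.

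Markers of other cell types were low apart from COL1A1, which is also an early target of TGF-β. Of 8 leukocyte markers only CD14 and ITGAM had enough counts to test, with a summed level over the list of 4.25 to 5.37 CPM in buffer and 3.86 to 4.20 CPM with TGF-β, and MS4A1 was at 0 counts in all 6 libraries. The 4 endothelial markers summed to 0.244 to 0.586 CPM in buffer and 0.305 to 0.513 CPM with TGF-β. The 9 fibroblast and mural markers summed to 25.3 to 31.3 CPM in buffer and 141 to 157 CPM with TGF-β, of which COL1A1 made up 18.6 to 22.3 CPM and 133 to 149.8 CPM. COL1A2, its partner chain, had 0 counts in all 6 libraries. COL3A1 was at most 0.195 CPM and DCN at most 0.147 CPM in any of them.

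The same ligand response in Co.vec cells shares no library with that of LETS1 cells and was used to find where they differ. In Co.vec cells 3416 genes (21.1%) were higher and 3011 (18.6%) lower. Of the rises in LETS1 cells 84.3% were also rises in Co.vec cells, which is 78.6% of the Co.vec rises, and of the falls 68.4% were also falls, 70.1% of the Co.vec falls. Across the 7885 genes called in either, the log2 fold changes had a Pearson correlation of 0.896 and a Spearman correlation of 0.899, and 7534 had the same sign. This is a description across genes, which are not independent replicates. TGFBR1 rose by 1.75 ± 0.053 in LETS1 cells and 1.72 ± 0.054 in Co.vec cells, SKIL by 1.65 ± 0.053 and 1.65 ± 0.053, and TGFBR2 fell with -0.78 ± 0.043 and -0.82 ± 0.042 (log2 fold change ± SE), and these 3 differences of 0.03 ± 0.075, 0.00 ± 0.074 and 0.05 ± 0.060 did not pass (interaction adjusted p = 0.976, 0.997 and 0.936). A further 1458 genes were called in LETS1 cells and not in Co.vec cells. Of these, 1292 had the same sign in Co.vec cells, and the difference between the responses was called for 15.

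**Figure D4:**
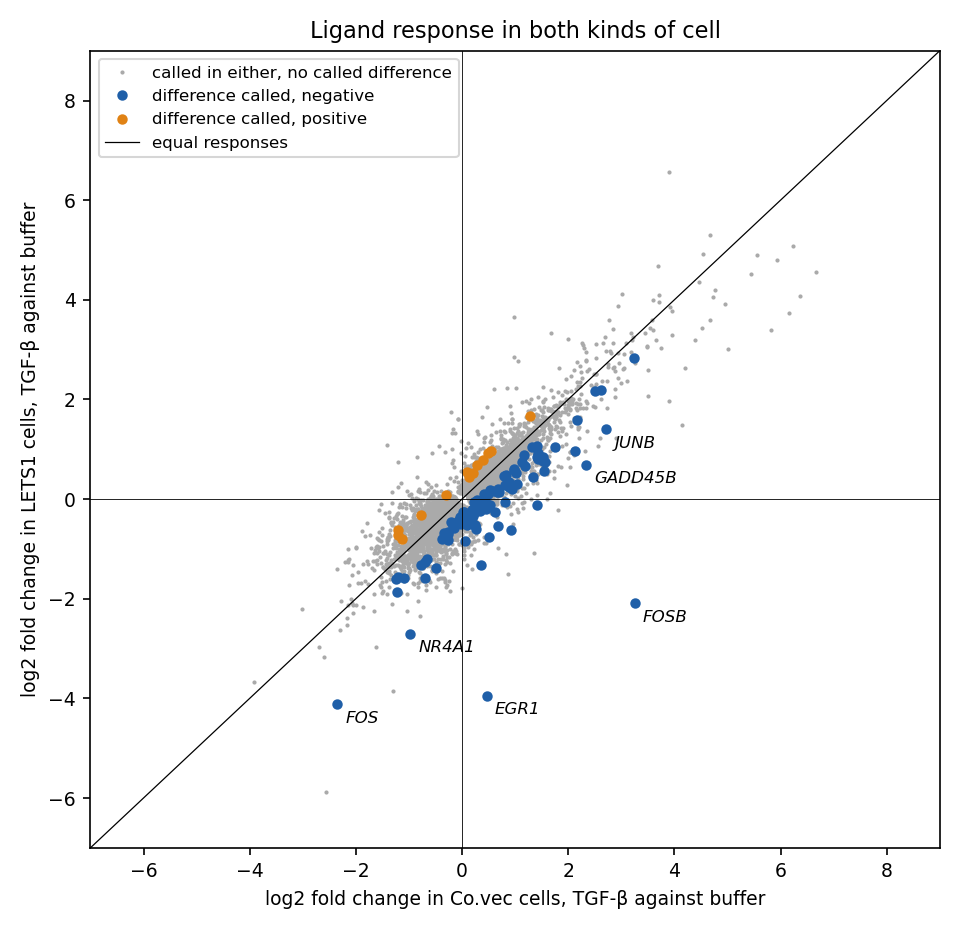
Log2 fold change of TGF-β against buffer in LETS1 cells (vertical) and Co.vec cells (horizontal) for the 7885 genes called in either, with the line of equal responses. Most genes lie near the line; the 97 genes in blue lie below it and the 13 in orange above it, with FOSB (3.25 in Co.vec cells, -2.09 in LETS1 cells) and EGR1 (0.46 and -3.94) farthest off.

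The difference itself, the response in LETS1 cells minus that in Co.vec cells, was tested as an interaction. It was positive for 13 genes (0.0803%) and negative for 97 (0.599%). The negative ones were led by immediate early genes: 10 of 20 genes of that list and 9 of 13 genes of the AP-1 list, which share no member, had one, and 0 had a positive one. FOSB (ENSG00000125740, chr19:45467995-45475179, plus strand) was at 0.445, 0.446 and 0.551 CPM in Co.vec buffer and at 5.45, 5.00 and 3.46 CPM in Co.vec cells with TGF-β, against 17.6, 16.9 and 28.0 CPM and 5.38, 5.62 and 3.71 CPM in LETS1 cells. It thus rose in Co.vec cells and fell in LETS1 cells to a like level, a difference of -5.34 ± 0.55 on the log2 scale (interaction adjusted p = 0.000944). EGR1 was at 2.62, 2.13 and 2.50 CPM in Co.vec buffer and 3.85, 2.99 and 3.16 CPM in Co.vec cells with TGF-β. All 6 Co.vec libraries were far below the LETS1 buffer libraries given above and near the LETS1 TGF-β libraries, and the difference was -4.41 ± 0.43 (adjusted p = 0.000628). FOS was at 18.2, 19 and 24.3 CPM in Co.vec buffer and 4.42, 3.86 and 3.81 CPM with TGF-β, so both kinds of cell fell and LETS1 cells fell from higher (difference -1.77 ± 0.21, adjusted p = 1.58e-05). For NR4A1, with 22.6, 25.1 and 24.0 CPM in Co.vec buffer and 11.1, 12.9 and 12.3 CPM with TGF-β, the difference was -1.72 ± 0.21 (adjusted p = 0.00163).

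GADD45B, a stress sensor and early SMAD target, rose in both, from 9.78, 10.1 and 10.2 CPM to 51.7, 51.2 and 48.6 CPM in Co.vec cells and from 32.6, 30.8 and 40.4 CPM to 55.1, 57.8 and 54.8 CPM in LETS1 cells. The TGF-β levels nearly met while the buffer levels were higher in LETS1 cells (difference -1.64 ± 0.11). ATF3 (-1.56 ± 0.14), SCHIP1 (-1.67 ± 0.37), which overlaps a readthrough gene, and the microRNA host gene MIR23AHG (-1.52 ± 0.11) completed the 8 most negative. Of pathway and target genes, SMAD7 (-0.49 ± 0.10), PMEPA1 (-0.43 ± 0.063), GREM1 (-0.58 ± 0.10), FSTL3 (-0.35 ± 0.073), COL1A1 (-0.40 ± 0.093), JUNB (-1.32 ± 0.17) and CCN1 (-1.0 ± 0.084) had smaller rises in LETS1 cells, and TGIF1 (-0.31 ± 0.071) was called higher only in Co.vec cells. SMAD7 was at 22.6, 24.2 and 25.5 CPM in Co.vec buffer and 50.6, 45.9 and 49.3 CPM with TGF-β, so its rise of 1.01 there compares with 0.52 in LETS1 cells. The difference for SMAD7 was not called without LETS1 buffer replicate 3 (adjusted p = 0.0653). That for COL1A1 was lost without LETS1 buffer replicate 3, LETS1 TGF-β replicate 3 or Co.vec buffer replicate 2 (highest adjusted p = 0.218). That for TGIF1 was lost without LETS1 buffer replicate 2, LETS1 TGF-β replicate 3, Co.vec buffer replicate 1 or Co.vec TGF-β replicate 1 (highest 0.0922).

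Over the 97 negative genes the median log2 level of LETS1 against Co.vec cells was 0.48 in buffer and -0.06 with TGF-β, and 92 of them were higher in LETS1 cells in buffer. The gap between LETS1 and Co.vec cells was larger in buffer than with TGF-β for 74 of the 97. Others differed mainly with TGF-β. The log2 level of LETS1 against Co.vec cells was -0.07 in buffer and -0.72 with TGF-β for ELF3, and -0.01 and -0.39 for TOB1. These levels are what the difference is computed from and are given as a description. The 8 most positive differences were C2orf72 (0.59 ± 0.11), XBP1 (0.48 ± 0.064), SLFN5 (0.45 ± 0.083), CDH6 (0.44 ± 0.088), SPDEF (0.44 ± 0.093), GPAM (0.42 ± 0.086), VASN (0.41 ± 0.097) and CORO2A (0.40 ± 0.094). XBP1, a transcription factor of the secretory pathway, fell from 234 to 102 CPM in Co.vec cells and from 132 to 80.1 CPM in LETS1 cells. SLFN5, an interferon-inducible gene, rose in LETS1 cells from 41.1 to 59.6 CPM and had a log2 fold change of 0.09 ± 0.057 in Co.vec cells, where it did not pass. Buffer replicate 3 of LETS1 cells weighed on these counts: without it 70 differences were negative and 8 positive, 74 of the 110 being called again, and 21 were positive without Co.vec TGF-β replicate 3. SCHIP1 lost its call without LETS1 TGF-β replicate 1 (adjusted p = 0.0683), SPDEF without LETS1 TGF-β replicate 2 (0.0548), and CORO2A and VASN under 6 and 7 of 16 alternatives.

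**Figure D5:**
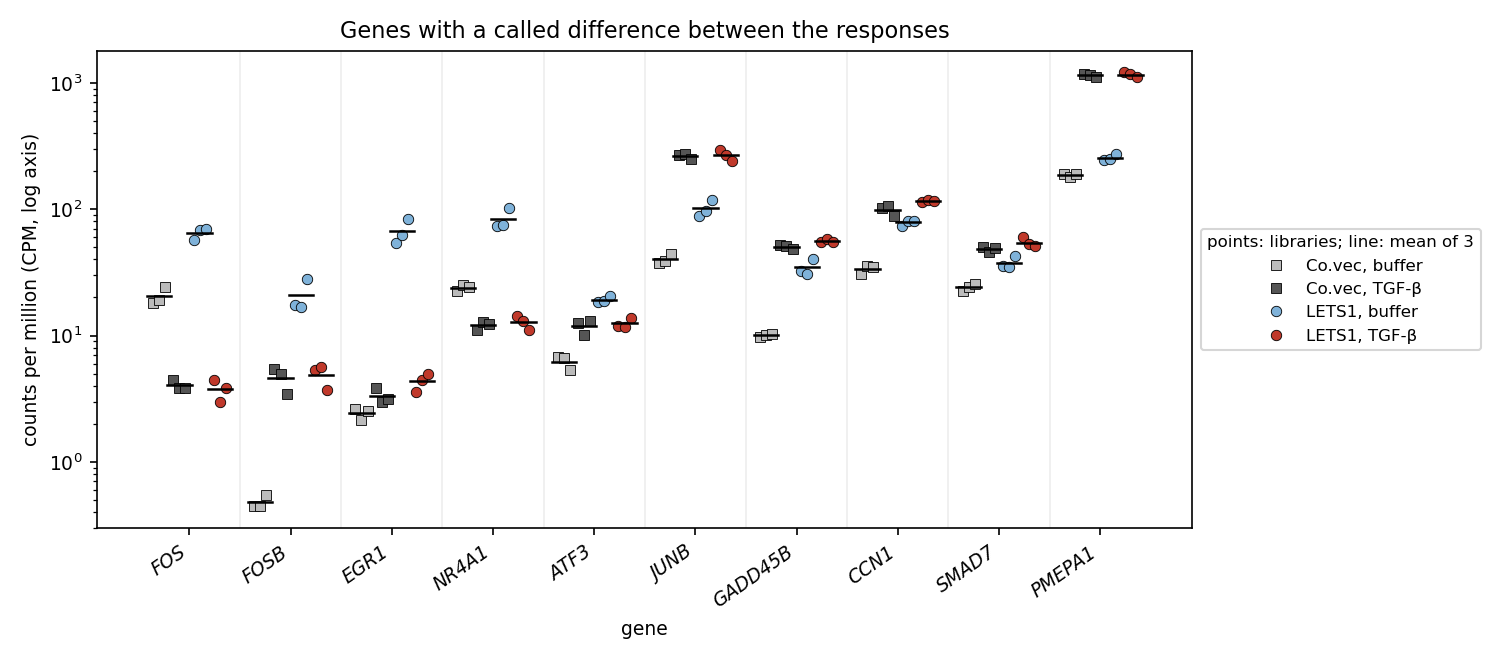
CPM (log axis) in each of the 12 libraries for 10 genes whose ligand response differed between LETS1 and Co.vec cells, with a line at the mean of 3. Squares are Co.vec cells (light buffer, dark TGF-β) and circles LETS1 cells (blue buffer, red TGF-β). For these 10 genes the TGF-β groups sit close to each other, and the LETS1 buffer libraries are higher than the Co.vec buffer libraries. Some negative genes not shown differed more with TGF-β, as given in the text.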

How the data were processed

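RNA of A549 cells was sequenced in 12 libraries, 3 in each of 4 groups. Per the submitters' processing notes, which give no order of steps, the authors used cutadapt 2.10, STAR 2.7.5a, HTSeq 0.12.4 and the build GRCh38. The deposited values are raw counts per gene. For strand setting and annotation release, both not given in the sources used here, nothing was assumed. Rows for fragments not assigned to a single gene (ambiguous, unaligned or outside genes, together 18.9% to 20.0% of fragments) stayed out of library sizes and tests. Symbols came from a gene name table and coordinates from GENCODE 29 (GRCh38).

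Genes were kept with filterByExpr (16192 left), scaled by TMM and fitted with edgeR 4.0.16 (R 4.3.3), robust quasi-likelihood, 1 mean per group over all 12 libraries. The 3 contrasts were TGF-β against buffer in LETS1 cells, the same in Co.vec cells, and their difference. P values were adjusted by Benjamini-Hochberg, with calls under 0.05. SE is the log2 fold change over the root of its F statistic. With 1 to 3 counts in a group, a ratio with an exact 95% interval is given. Counts of 20 or more entered the closeness check. No pairing by replicate number was seen over all tested genes (residual correlations -0.00478 to 0.0359 between same-numbered LETS1 libraries, 0 of 3 over 0.1). A correlation over all genes cannot exclude pairing that touches only some of them.

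The gene lists, written from general knowledge, and the members were chosen with earlier results of these data known, so lists are described by counts and medians without a test. Named genes were the 14 largest rises and falls (adjusted p under 0.05, mean of at least 1 CPM in the higher group, no overlap of groups), the 8 most positive and negative differences, every tested ligand, receptor, SMAD, feedback, early target and EMT factor gene, up to 4 called members with the smallest p and up to 2 of the rarer direction in other lists, and 13 genes fixed by name. Of 1261 list entries 1258 matched a gene identifier. Some items are not reported here. As alternatives, DESeq2 1.42.0, a fit with the replicate block, one of the 6 libraries alone, one without a count filter, RLE scaling, a 2-fold minimum and fits leaving out each library were run.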

Additional observations from a re-analysis of the deposited data

Results flagged for a closer look

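A ligand response that differed between LETS1 and Co.vec cells by the interaction test is given here for each named gene that had one, as the log2 difference (response in LETS1 cells minus response in Co.vec cells, edgeR's quasi-likelihood test). All these values use the same 12 libraries. Among immediate early and AP-1 genes, JUNB of which is also an early TGF-β target, negative values were found for FOSB (-5.34), EGR1 (-4.41), FOS (-1.77), NR4A1 (-1.72), ATF3 (-1.56), JUNB (-1.32), NR4A2 (-0.90), PPP1R15A (-0.78), MAFF (-0.76) and MAFK (-0.62). Among genes of SMAD feedback, secreted antagonists and early TGF-β targets not named under another heading here, negative values were those of KLF10 (-0.78), GREM1 (-0.58), SMAD7 (-0.49), PMEPA1 (-0.43), COL1A1 (-0.40), FSTL3 (-0.35), EDN1 (-0.32) and TGIF1 (-0.31). For genes of growth control, tension and signalling, of which GADD45B and CCN1 are early targets too, they were those of GADD45B (-1.64), CCN1 (-1.0), HES1 (-0.88), ELF3 (-0.66), TOB1 (-0.38), AJUBA (-0.35), DUSP4 (-0.26) and KRT80 (-0.38). Clock, metabolic and stress genes with a negative value were PER1 (-0.57), BHLHE40 (-0.55), ADM (-0.55), SLC30A1 (-0.39) and PDK4 (-0.35). The other negative values were those of SCHIP1 (-1.67), MIR23AHG (-1.52) and NEAT1 (-0.43). A positive value, a larger rise or a smaller fall in LETS1 cells, was found for IFIT3 (0.32), IFIT2 (0.33), CORO2A (0.40), VASN (0.41), GPAM (0.42), SPDEF (0.44), CDH6 (0.44), SLFN5 (0.45), XBP1 (0.48) and C2orf72 (0.59). FOSB was higher with TGF-β than in buffer in every Co.vec library and lower in every LETS1 library, so its response had opposite signs. It was 1 of 16 genes with a negative difference that were called higher in Co.vec cells and lower in LETS1 cells. Among the others were ATF3 (log2 fold change 0.93 in Co.vec cells and -0.63 in LETS1 cells), KLF10 (0.25 and -0.53) and PPP1R15A (0.25 and -0.52). Of the 110 genes with a called difference between the responses, 74 had it again without LETS1 buffer replicate 3. Of the 44 named here, AJUBA, COL1A1, CORO2A, DUSP4, IFIT2, IFIT3, PER1, SLC30A1, SMAD7 and VASN lost the call without that library, and EDN1, SCHIP1, SPDEF and TGIF1 lost it without another library. PER1 lost it under 12 of 16 alternatives.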

How the results depend on the processing

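The counts of genes called in LETS1 cells, 3187 higher and 3085 lower, stayed within 1.5 times these values under RLE size factors (3273 and 2979), no filter on low counts (3462 and 2471), DESeq2 (2922 and 2187), the 6 libraries alone (3350 and 3077) and leaving out each library (2888 to 3040 and 2554 to 2714). The replicate block gave 3127 and 3009 and changed no call of a named gene in LETS1 cells. A log2 fold change of at least 1 left 555 and 344 in LETS1 cells, 618 and 284 in Co.vec cells, and 0 positive and 12 negative differences, by construction. In Co.vec cells leaving out a library gave 3078 to 3321 higher and 2381 to 2808 lower. For the difference, 8 to 21 positive (13 in the report) and 70 to 113 negative (97) were called without single libraries, and 28 positive and 108 negative without the filter, where the cause was not tested. The block gave 14 positive and 92 negative. Of 294 named genes called in LETS1 cells, 284 kept their call under every alternative run and 10 lost it under some, and of 44 named differences 30 kept it and 14 lost it under some of 16 alternatives. The block ended the difference calls of PER1 and DUSP4. No named gene with a call changed sign. Medians of lists near 0 (ligands, apoptosis, epithelial junctions, hypoxia, interleukins, semaphorins, cytostatic genes, lineage, p53 targets, mitochondrial genes and other-cell markers) changed sign when 1 library was left out. Depth limits genes averaging under 1 CPM, of which 6.38% were called higher and 8.07% lower.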
